A study of Rattus norvegicus with 17 samples.

Results

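Kinases, phosphatases and small GTPases carry signals from receptors at the membrane to the cytoskeleton, to vesicles and to the nucleus. A kinase adds a phosphate to its target and a phosphatase removes it, while a GTPase is switched on by an exchange factor (GEF) and off by an activating protein (GAP). In the hippocampus these proteins take part in synaptic transmission, in the shaping of dendritic spines and in the transcription that follows neuronal activity.

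The genes described here were 38 of the 22664 genes tested in rat hippocampus. They were taken by name from the first and second of the study's lists of genes differentially methylated between sites. The symbol had to begin with any of 17 stems (Arhg, Rab, Ras, Rap, Rgs, Map2k, Map3k, Map4k, Mapk, Pde, Prk, Camk, Ptp, Dusp, Dgk, Plc, Pik3). Of 41 such genes, 3 (Dusp5, Rgs14 and Pde7b) were left out because the study used them as markers of a region or cell type, and none was listed at 0 in every library. Membership thus rests on DNA methylation and on names and not on the RNA values below. For 29 members the symbol came from the first methylation list and for 14 from the second, with 5 in both. The methylation values themselves are not used here.

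RNA-Seq was performed on whole hippocampus of male SAS Sprague Dawley rats at 3 laboratories, with 1 library per rat: 5 at Site #1 (Legacy Research), 6 at Site #2 (Trinity College) and 6 at Site #3 (UAB). No rat was treated, so each site is an untreated group of the same strain and sex. The first methylation list compared Sites #1 and #2, and the second compared Sites #1 and #3. The study's list for Sites #2 and #3 was not used to choose members. Rats of Sites #1 and #2 came from Charles River at 8.3 weeks of age, lived in single cages on LabDiet chow, and were sacrificed 18 to 19 days after arrival, with saline as the dissection buffer. Those of Site #3 came from Harlan (Envigo) at 8.0 weeks, were double-housed on an NIH open formula diet, and were sacrificed after 27 days, with bubbled artificial cerebrospinal fluid as the buffer. These factors all set Site #3 apart in the same way and cannot be told apart. Sites #1 and #2 were not alike in everything, as transit time, cage ventilation, cage size and bedding differed between them.

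Each value is the deposited level of a gene in a library on a log2 scale after the authors' normalization. A difference of 1 is read here as a doubling, and all fold values rest on that reading. The normalization is known only by the name DESeq2. Genes averaging under 5 had a median SD within sites of 0.013, against 0.088 for the rest. Differences and fold values may thus be smaller than in the read counts, most of all at low levels. By how much is not known. Levels are not divided by gene length, so they are compared between libraries for 1 gene and never between genes. Neuronal, astrocytic, oligodendrocytic and microglial marker genes were well above the lowest values in every library. Replicate 1 of Site #3 stood apart in the choroid plexus markers, where F5 reached 12.04, while it stayed between 5.36 and 5.76 in all others. Col1a1, a collagen gene of meninges and fibroblasts, lay between 10.07 and 10.95 in 4 libraries (replicate 5 of Site #1, replicate 3 of Site #2, replicates 1 and 2 of Site #3) and between 8.53 and 8.95 elsewhere. In whole tissue, fewer cells of a type and less RNA per cell cannot be told apart.

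Among the members are genes that neurons induce on activity: Dusp1, Dusp6 and Rasgef1b. The cAMP response element, the site that CREB binds, is a textbook feature of such promoters, and it was searched in the bases directly before the annotated start (RefSeq, build GRCr8, which is not the build of the RNA values), and the sequences of the 2 phosphatase genes are shown. The capitals mark the full element TGACGTCA or its shorter core TGACG, searched on both strands. The full element holds the core once on each strand.
Dusp1, chr10:17184603-17184852, plus strand: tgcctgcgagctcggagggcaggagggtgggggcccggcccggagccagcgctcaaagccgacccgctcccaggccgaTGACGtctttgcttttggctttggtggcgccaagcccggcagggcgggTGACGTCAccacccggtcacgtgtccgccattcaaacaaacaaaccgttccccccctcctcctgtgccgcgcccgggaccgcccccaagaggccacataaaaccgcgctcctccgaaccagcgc
Dusp6, chr7:35979354-35979501, plus strand: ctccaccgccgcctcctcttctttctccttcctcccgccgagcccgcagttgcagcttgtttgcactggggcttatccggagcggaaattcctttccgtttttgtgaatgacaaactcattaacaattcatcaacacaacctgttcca
The 250 bases of Dusp1 held 1 full element and 3 cores, counting the 2 within the full element, and the 148 bases of Dusp6 held 0 of either. RefSeq lists 2 starts for Rasgef1b, with 0 full elements before both and 0 and 1 cores. Of all 33469 RefSeq promoters searched over 250 bases, 1.59% held the full element and 18.2% the core. A match is a run of letters and no evidence of binding.

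No member passed the test between any pair of sites. With limma on all 22664 genes and Benjamini-Hochberg adjustment, 0 of 38 members had an adjusted p under 0.05 between Sites #1 and #2, where 0.0% of all genes tested were called. Between Sites #1 and #3 the count was 0 of 38 beside 0.101% of all genes. Between Sites #2 and #3 it was 0 of 38 beside 1.05%, and for Site #3 against the mean of the other sites 0 of 38 beside 0.768%. A count of 0 does not set the members apart from shares as low as these. The study, with DESeq2 at the same adjusted threshold, reported more differentially expressed genes for each pair of sites than were called here. Whether members were among them was not looked up. The smallest adjusted p among the members was 0.66, 0.46, 0.0645 and 0.126 in the 4 comparisons, in the same order.

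Counts at an unadjusted p under 0.05 were read against the same background. For Site #1 vs Site #2, 3 of 38 members (7.89%) stood below that limit, beside 6.74% of all genes. The count for Site #1 vs Site #3 was again 3 (7.89%), beside 8.17% of all genes. For Site #2 vs Site #3 it was 5 (13.2%), beside 14.8%, and for Site #3 against the mean of the other sites 3 (7.89%), beside 12.0%. Among genes averaging 1 CPM or more (read counts scaled to library size, approximated from the log2 values), the shares of members and of all such genes were 8.57% and 9.19%, 8.57% and 10.6%, 14.3% and 21.1%, and 8.57% and 15.9% in the 4 comparisons. In all, 8 members reached it at least once: Pik3cd, Ptpn14, Arhgap23, Rassf4, Map2k6, Mapk8ip3, Pde3a and Prkar1b. The share of all genes that reached it at least once was not counted, so the 8 have no background of their own. The libraries of 2 sites did not overlap at all for only 1 member, Pik3cd at Sites #2 and #3 (2.63% of members beside 1.95% of all genes). No member was without overlap in the other 3 comparisons (Site #1 with Site #2, Site #1 with Site #3, Site #3 with all other libraries), where 0.878%, 1.38% and 0.344% of all genes were.

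The differences were small. The largest between any 2 site means was 0.26 on the log2 scale, or 1.2-fold, for Dusp6 between Sites #1 and #3. In the 3 pairwise comparisons, in the order of the plot of differences, the median absolute log2 difference of the members was 0.062, 0.047 and 0.061. Over all genes tested it was 0.024, 0.023 and 0.029, and over the 13679 genes that averaged 1 CPM or more, 35 members among them, it was 0.047, 0.043 and 0.06. More members were lower than higher at Site #2 relative to Site #1 (26 of 38), and more were higher than lower at Site #3 relative to Site #2 (25 of 38). Of all genes 50.6% were lower in the first of these and 50.5% higher in the second. Without replicate 4 of Site #2, which was the lowest library for 14 members, the counts were 27 and 23 of 38. Both comparisons share the libraries of Site #2.

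**Figure D1:**
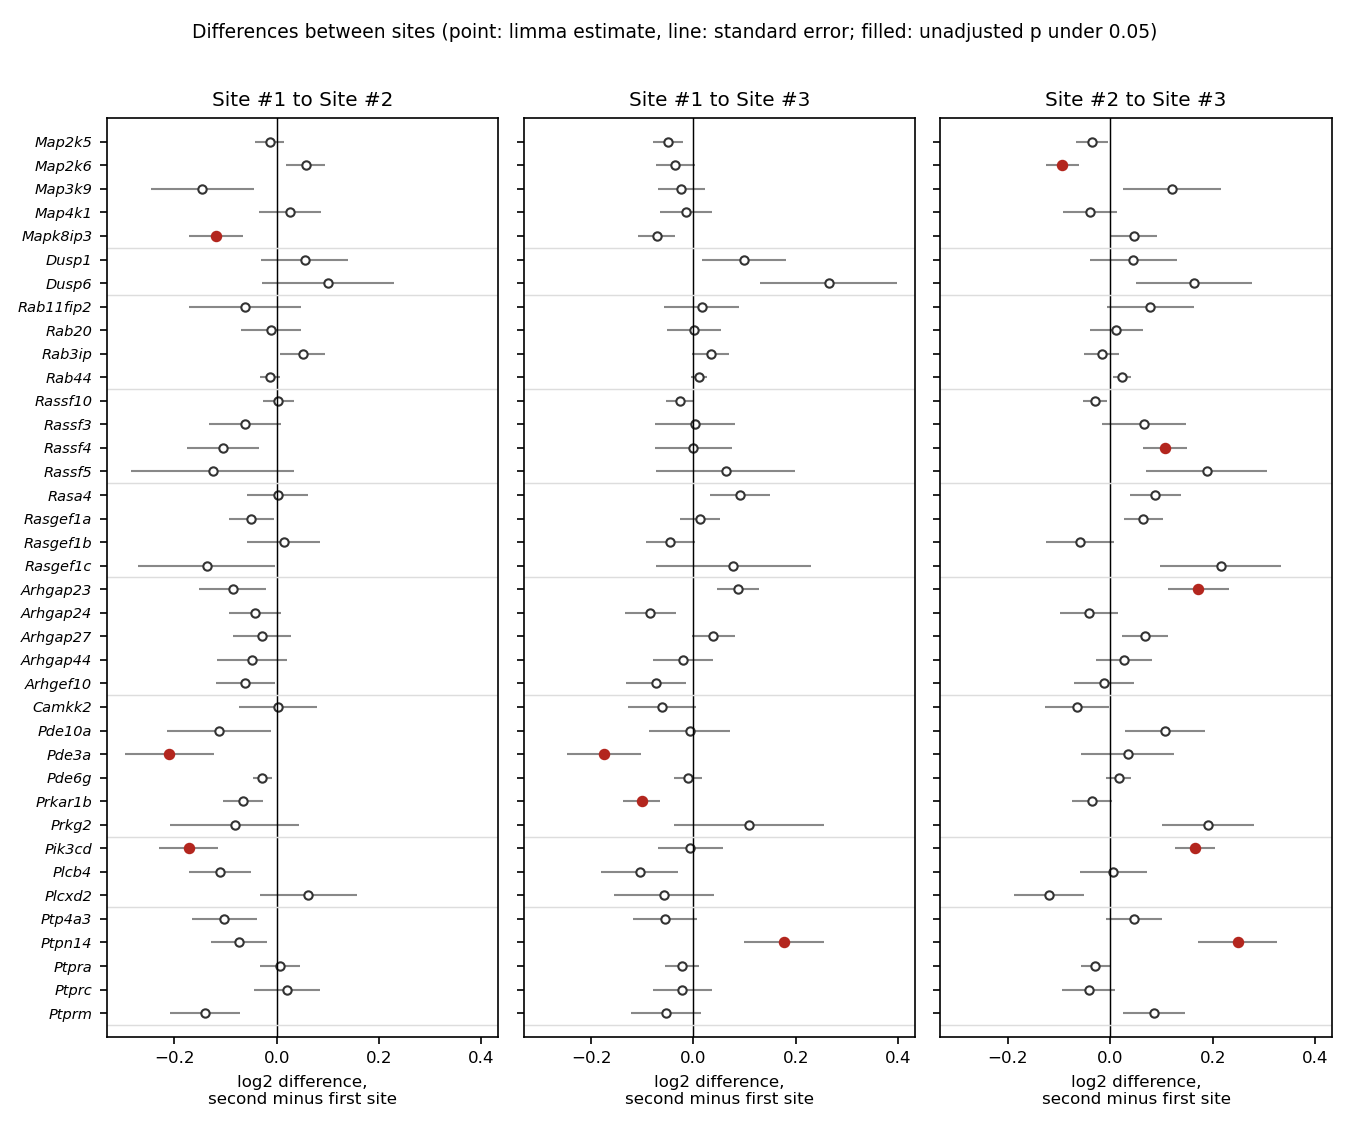
Log2 difference between sites for each of the 38 signaling genes, ordered by role, with the second site minus the first on the x axis. Points are limma estimates, lines standard errors, and filled points have an unadjusted p under 0.05. Such points number 3, 3 and 5 in the 3 panels, and none passed the adjusted threshold.

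Phosphoinositide signaling was represented by 3 members, and it held the member with the smallest p. Pik3cd encodes the delta catalytic subunit of phosphoinositide kinase, a lipid kinase prominent in leukocytes. At Site #2 its libraries lay close together, with a lowest value of 9.31, a median of 9.37 and a highest of 9.43. All 6 libraries of Site #3 were above them, at 9.45 to 9.66 with a median of 9.52. Site #1 overlapped both, with 9.35, 9.45, 9.67, 9.62 and 9.64 in its 5 libraries. The log2 difference from Site #2 to Site #3 was 0.17 (SE 0.04), or 1.12-fold, with an unadjusted p of 0.000976 and an adjusted p of 0.0645 by limma. When only genes averaging 1 CPM or more were tested, the adjusted p by limma was 0.046, which is past the threshold. From Site #1 to Site #2 it was -0.17 (SE 0.06, limma adjusted p = 0.66), and from Site #1 to Site #3 it was -0.01 (SE 0.06, limma adjusted p = 0.982).

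The 6 microglial markers were set beside Pik3cd. Between Sites #2 and #3, 5 of them (of Tmem119, C1qa, Csf1r, P2ry13, Selplg and Pycard) had higher means at Site #3. An unadjusted p under 0.05 was reached by 2 (33.3%, beside 14.8% of all genes): C1qa by 0.27 and Csf1r by 0.20, with limma adjusted p values of 0.0618 and 0.055. C1qa did not overlap between these sites, at 10.58 to 11.03 against 11.06 to 11.17. It was 1 of the 6 (16.7%, beside 1.95% of all genes). The mean level of the list ran from 9.07 to 9.44 at Site #2, from 9.36 to 9.51 at Site #3 and from 9.16 to 9.43 at Site #1, so the ranges met. No marker of the list was at 0. Over the 17 libraries Pik3cd and the mean of the list gave r = 0.418 (permutation p = 0.0957, adjusted over 10 pairs 0.45) and rho = 0.404 (permutation p = 0.11). Centered within sites r was 0.211, and without the 2 libraries farthest from the median it was 0.397. The part of microglia in the Pik3cd values was not tested. Plcb4, a phospholipase C that follows Gq-coupled receptors, and Plcxd2, a phospholipase-related protein, had site means that spanned 0.11 and 0.12, within their pooled within-site SDs of 0.12 and 0.16.

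Tyrosine phosphatases numbered 5. Ptpn14, a cytosolic phosphatase that restrains the coactivator YAP, had 6.74, 6.78, 6.81, 6.64 and 6.68 at Site #1. Its lowest, median and highest libraries were 6.51, 6.65 and 6.83 at Site #2 and 6.69, 6.87 and 7.13 at Site #3. The Site #3 libraries were higher on average but overlapped both other sites. Their highest values, 7.13 and 7.09, belonged to replicates 1 and 2, which are also among the libraries with high Col1a1. In the remaining libraries with high Col1a1, Ptpn14 was not raised: 6.68 in replicate 5 of Site #1 and 6.68 in replicate 3 of Site #2. The log2 difference from Site #2 to Site #3 was 0.25 (SE 0.08), or 1.19-fold, with an unadjusted p of 0.00684 and an adjusted p of 0.142 by limma. Against the mean of Sites #1 and #2 it was 0.21 (SE 0.06, unadjusted p = 0.0032, limma adjusted p = 0.126), and without replicate 1 of Site #3 it was 0.17 (limma adjusted p = 0.264). The part of meningeal or choroid plexus tissue in these values was not tested.

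The other tyrosine phosphatases varied less between sites. Ptpra, a receptor phosphatase that activates Src kinases, was among the steadiest members, with a range of 0.15 over all 17 libraries. Ptprc, the leukocyte antigen CD45, had site means of 7.33 ± 0.12 (SD, n = 5), 7.35 ± 0.10 (SD, n = 6) and 7.31 ± 0.08 (SD, n = 6). Ptprm, a receptor phosphatase of cell contacts, and Ptp4a3, a membrane-anchored phosphatase, had site means that spanned 0.14 and 0.10. Neither had an unadjusted p under 0.05.

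Among the 5 members with the stem Arhg, Arhgap23, a GAP, had the smallest p. Its libraries at Site #1 stood at 11.84, 11.72, 11.84, 11.73 and 11.70. At Site #2 they ran from 11.48 through a median of 11.69 to 11.86, and at Site #3 from 11.76 through 11.84 to 11.94. The Site #2 range was the widest and enclosed that of Site #1, and 4 of its 6 libraries lay below the lowest of Site #3. The log2 difference from Site #2 to Site #3 was 0.17 (SE 0.06, unadjusted p = 0.0134, limma adjusted p = 0.194), and without replicate 4 of Site #2, the lowest library, it was 0.13 (limma adjusted p = 0.31). Arhgap24, Arhgap27 and Arhgap44, further GAPs, and Arhgef10, a GEF, had site means that spanned 0.05 to 0.08.

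The 4 Ras effectors belong to the RASSF family, several of whose proteins bind active Ras or Rap and feed the Hippo pathway. Rassf4 had 8.98, 8.78, 8.53, 8.87 and 8.64 at Site #1. It lay at 8.60 to 8.72 (median 8.64) at Site #2 and at 8.62 to 8.84 (median 8.78) at Site #3. Site #1 covered the full range of both other sites, and the log2 difference from Site #2 to Site #3 was 0.11 (SE 0.04, unadjusted p = 0.0278, limma adjusted p = 0.264). Rassf5, which ties active Rap1 to cell adhesion in lymphocytes, had the widest range of all members, 0.97 or 1.96-fold from the lowest to the highest library. Its values were 9.23, 9.47, 9.87, 9.88 and 9.26 at Site #1, 8.91, 9.46 and 9.70 as the lowest, median and highest at Site #2, with 9.42, 9.61 and 9.87 at Site #3. All 3 sites overlapped broadly, and the log2 difference from Site #2 to Site #3 was 0.19 (SE 0.12, limma adjusted p = 0.504). Rassf3 spanned 0.06 between site means. Rassf10, with a mean of 4.38, was 1 of 3 members with a mean under 5, a level at which the deposited values hardly vary between libraries. Of all genes tested, 8678 lay under 5 on average and had a median SD within sites of 0.013, against 0.088 for the remaining 13986.

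Ras regulators were 4, of which Rasa4 is a calcium-dependent GAP and Rasgef1a, Rasgef1b and Rasgef1c are GEFs. Rasa4 had the smallest p of them, with 6.68, 6.61, 6.74, 6.84 and 6.89 at Site #1. The lowest, median and highest values were 6.66, 6.76 and 6.83 at Site #2 and 6.74, 6.82 and 6.99 at Site #3. The sites overlapped, and the log2 difference of Site #3 from the mean of the other sites was 0.09 (SE 0.05, unadjusted p = 0.0781, limma adjusted p = 0.485). Rasgef1c had the second widest range of the members, 0.88, and ran from 6.78 in replicate 2 of Site #2 to 7.66 in replicate 5 of Site #3. Rasgef1a had a range of 0.30 and Rasgef1b one of 0.44.

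The 4 genes of Rab proteins and their partners were the steadiest role between sites, with site means that spanned 0.01 to 0.08. Rab44 had the smallest p among them. Its libraries were 3.02, 3.04, 3.04, 3.06 and 3.08 at Site #1, 2.98 to 3.07 (median 3.04) at Site #2 and 3.03 to 3.07 (median 3.06) at Site #3. The values were nearly the same in every library at this low level, and the log2 difference from Site #2 to Site #3 was 0.02 (SE 0.02, limma adjusted p = 0.58). Rab20, a GTPase of endosomes and phagosomes, differed by 0.01 between its highest and lowest site means. Rab3ip, also called Rabin8, a GEF for Rab8, spanned 0.05, and Rab11fip2, an effector of Rab11 in recycling endosomes, spanned 0.08 with a range of 0.55 over the libraries.

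Of the 5 members of the MAPK cascade, 2 reached an unadjusted p under 0.05 in at least 1 comparison, a count without a background over all genes. Map2k6, a kinase that activates the stress kinase p38, had 10.12, 10.19, 10.12, 10.01 and 10.06 at Site #1, 10.11 to 10.23 (median 10.15) at Site #2 and 10.01 to 10.15 (median 10.05) at Site #3. Sites #2 and #3 overlapped through 1 library of Site #3, with a log2 difference of -0.09 (SE 0.03, unadjusted p = 0.0114, limma adjusted p = 0.182). Mapk8ip3, the scaffold JIP3 that links JNK kinases to axonal transport, had 14.11, 14.10, 14.10, 14.00 and 13.97 at Site #1. At Site #2 it ran from 13.80 to 14.04 (median 13.98) and at Site #3 from 13.93 to 14.08 (median 13.98). The 2 lowest libraries, replicates 3 and 4 of Site #2, stood below all others, and the log2 difference from Site #1 to Site #2 was -0.12 (SE 0.05, unadjusted p = 0.0461, limma adjusted p = 0.731). Map2k5, the activator of ERK5, held a range of 0.15. Map3k9, a mixed lineage kinase, had 9.12 in replicate 4 of Site #2 against 9.31 to 9.75 in the others, and Map4k1, a kinase of blood cells, had site means that spanned 0.04.

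The MAPK phosphatases Dusp1 and Dusp6 dephosphorylate MAP kinases, and both are induced when these kinases are active. Dusp6, which prefers ERK, had 11.43, 11.03, 10.86, 10.71 and 10.93 at Site #1. The lowest, median and highest libraries were 10.86, 11.10 and 11.33 at Site #2 and 10.98, 11.31 and 11.52 at Site #3. Within Site #1 alone the libraries covered nearly the whole range of the gene, and at Site #3 replicates 1 and 2 (10.99 and 10.98) lay below the other 4 (11.31 to 11.52). The log2 difference of Site #3 was 0.26 (SE 0.13) from Site #1 and 0.16 (SE 0.11) from Site #2, with limma adjusted p values of 0.67 and 0.54. Dusp1, whose promoter sequence is shown above, had site means of 9.10 ± 0.13 (SD, n = 5), 9.15 ± 0.17 (SD, n = 6) and 9.19 ± 0.16 (SD, n = 6). No pair of the genes induced by activity passed the test across the 17 libraries. Dusp1 and Dusp6 gave r = -0.377 (permutation p = 0.135) and rho = -0.488, with an adjusted p of 0.45 for r over 10 pairs, and r = -0.581 when values were centered within sites (adjusted p = 0.156). Rasgef1b gave r = 0.17 with Dusp1 and r = -0.101 with Dusp6.

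Calcium and cyclic nucleotide signaling was the largest role, with 6 members. Pde3a, a phosphodiesterase that breaks down cAMP and is inhibited by cGMP, had 7.67, 7.64, 7.45, 7.59 and 7.68 at Site #1. The lowest, median and highest libraries were 7.08, 7.39 and 7.63 at Site #2 and 7.20, 7.41 and 7.63 at Site #3. Most libraries of Site #1 were above most of the others, with overlap at each site, and the log2 difference was -0.21 (SE 0.09, unadjusted p = 0.0331, limma adjusted p = 0.702) to Site #2 and -0.18 (SE 0.07, unadjusted p = 0.0345, limma adjusted p = 0.559) to Site #3. Without replicate 4 of Site #2 the first of these was -0.15. Prkar1b, a regulatory subunit of protein kinase A found in neurons, had 13.71, 13.76, 13.75, 13.64 and 13.70 at Site #1, with 13.57 to 13.75 (median 13.64) at Site #2 and 13.53 to 13.69 (median 13.63) at Site #3. Its log2 difference from Site #1 to Site #3 was -0.10 (SE 0.04, unadjusted p = 0.0166, limma adjusted p = 0.46), with most libraries of Site #1 above most of Site #3. The neuronal markers Pfkp, Gad2 and Grin1 had log2 differences of -0.15, -0.14 and -0.05 in the same comparison. That of Pfkp had a SE of 0.04 (unadjusted p = 0.00251, limma adjusted p = 0.263). The part of neurons in the Prkar1b values was not tested.

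The remaining members of that role had no p under 0.05. Camkk2, the kinase that activates CaMKI, CaMKIV and AMPK, had site means that spanned 0.06. Pde10a, a phosphodiesterase best known from striatal neurons, spanned 0.11 with a range of 0.60. Prkg2, the membrane-bound cGMP-dependent kinase, ranged over 0.78, from 7.28 in replicate 5 of Site #1 and replicate 4 of Site #2 to 8.05 in replicate 4 of Site #1. Pde6g, the gamma subunit of the photoreceptor phosphodiesterase, had a mean of 2.75 and a range of 0.16.

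**Figure D2:**
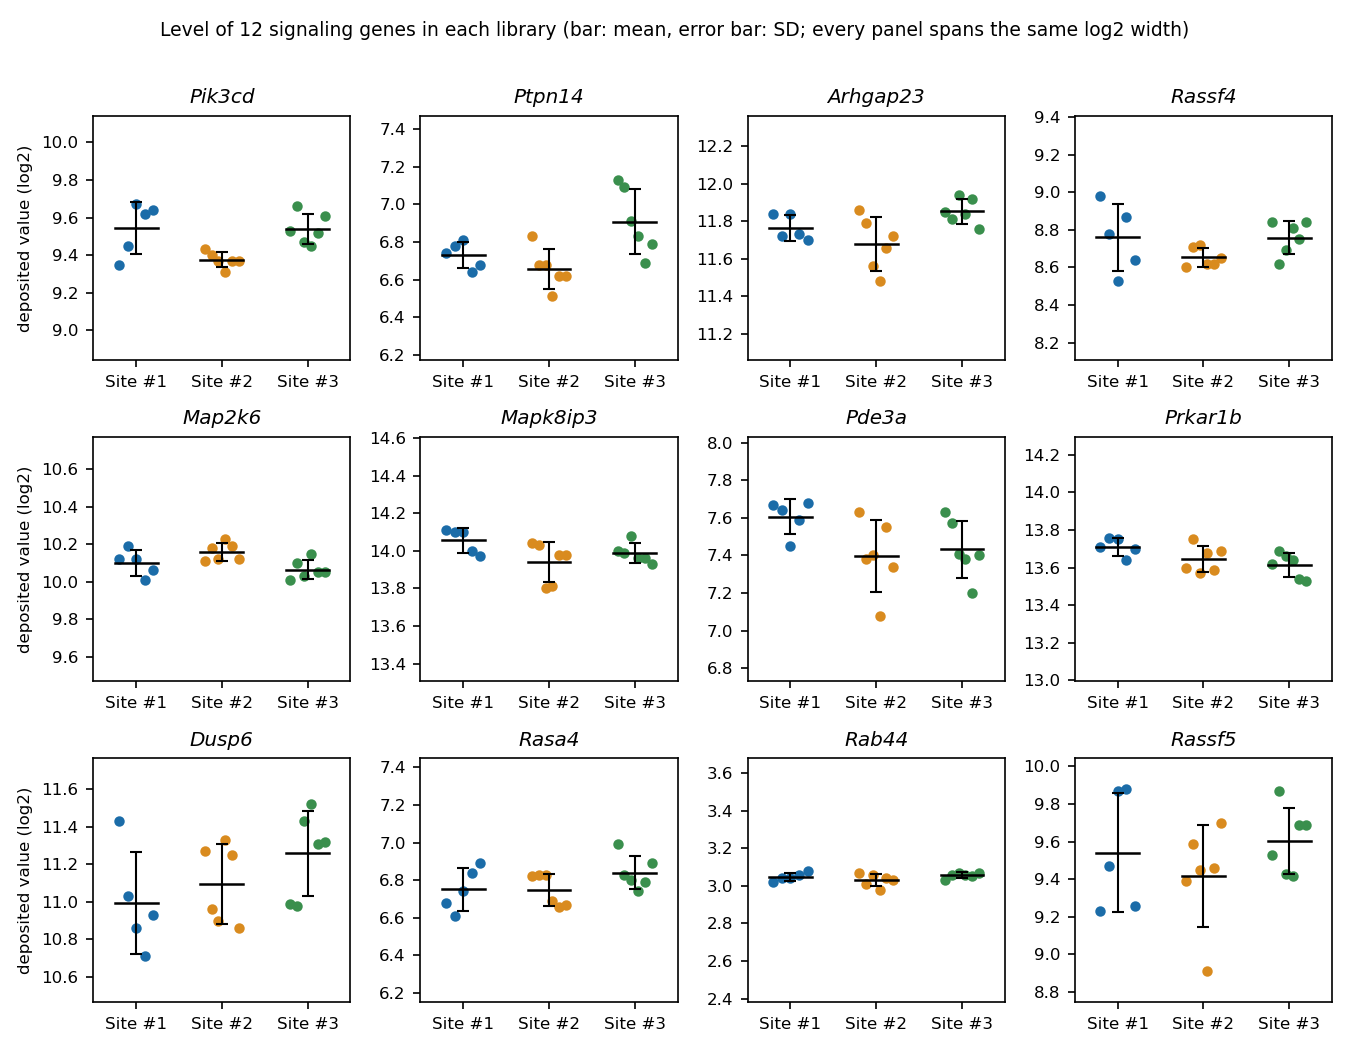
Deposited log2 level of 12 signaling genes in each library of the 3 sites, with the mean as a bar and the SD as an error bar, and the same width of the y axis in every panel. The 6 libraries of Site #2 lie below the 6 of Site #3 for Pik3cd, at 9.31 to 9.43 against 9.45 to 9.66, while the sites overlap for the other 11 genes.

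For most members the span of the site means did not exceed the SD among rats of a site. The highest and lowest site means were farther apart than the pooled within-site SD for 10 of 38 members. A span of means and an SD of single rats are unlike measures, and this was not counted over all genes. The median share of a member's variance that lay between sites was 14.4%, beside 13.2% for all genes tested and 15.2% for genes averaging 1 CPM or more. This share was highest for Pik3cd at 47.5% and Ptpn14 at 46.4%, and lowest for Rab20 at 0.42%. The pooled within-site SD had a median of 0.11 over the 35 members with at least 1 CPM and of 0.089 over all such genes. The widest within-site spreads belonged to Rassf5 (0.26), Rasgef1c (0.25), Prkg2 (0.23) and Dusp6 (0.23). In all, 10 members ranged over at least 0.5 across the libraries, which was not counted over all genes either.

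**Figure D3:**
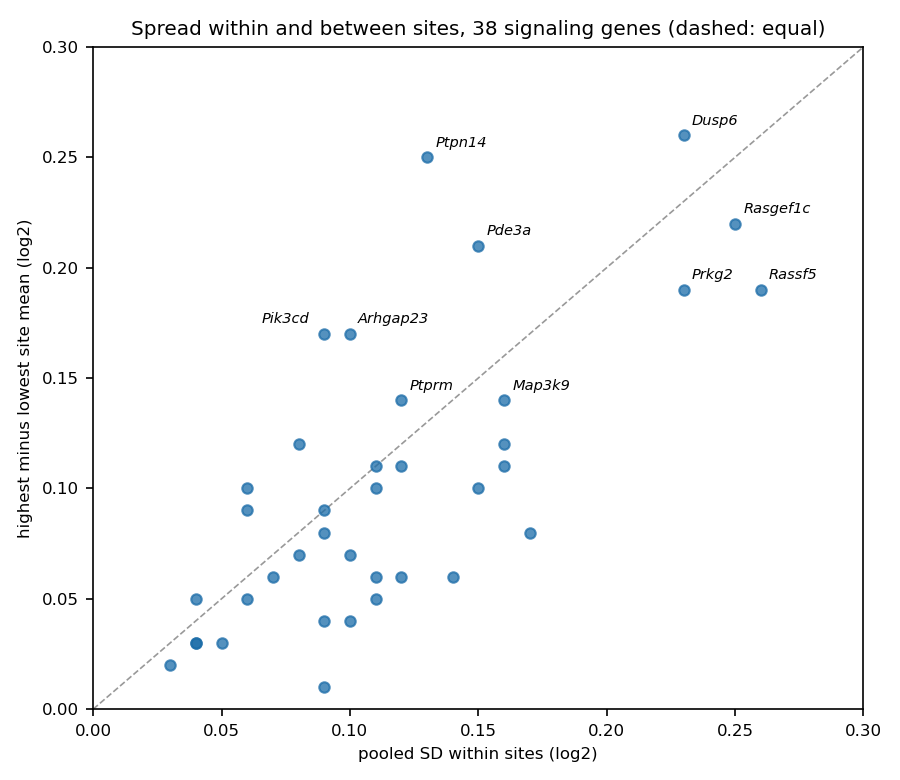
Distance between the highest and the lowest site mean (y axis, log2) against the pooled SD within sites (x axis, log2) for the 38 signaling genes, with a dashed line where both are equal. Ptpn14 (0.25 against 0.13), Pik3cd (0.17 against 0.09) and Arhgap23 (0.17 against 0.10) lie above the line, and Rassf5 (0.19 against 0.26) lies below it.

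One library carried many of the lowest values. Replicate 4 of Site #2 was the lowest of the 17 libraries for 14 of 38 members (36.8%), while it was the lowest for 13.8% and the highest for 15.8% of the 13679 genes with at least 1 CPM. The median absolute deviation of the members from their means was 0.165 in it, and 0.051 to 0.083 in the others. Among the 14 genes were Rassf5, Pde3a, Map3k9, Ptprm, Ptpn14, Pik3cd and Arhgap23. It was the highest library for 3 members. Leaving it out brought no member below an adjusted p of 0.05.

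**Figure D4:**
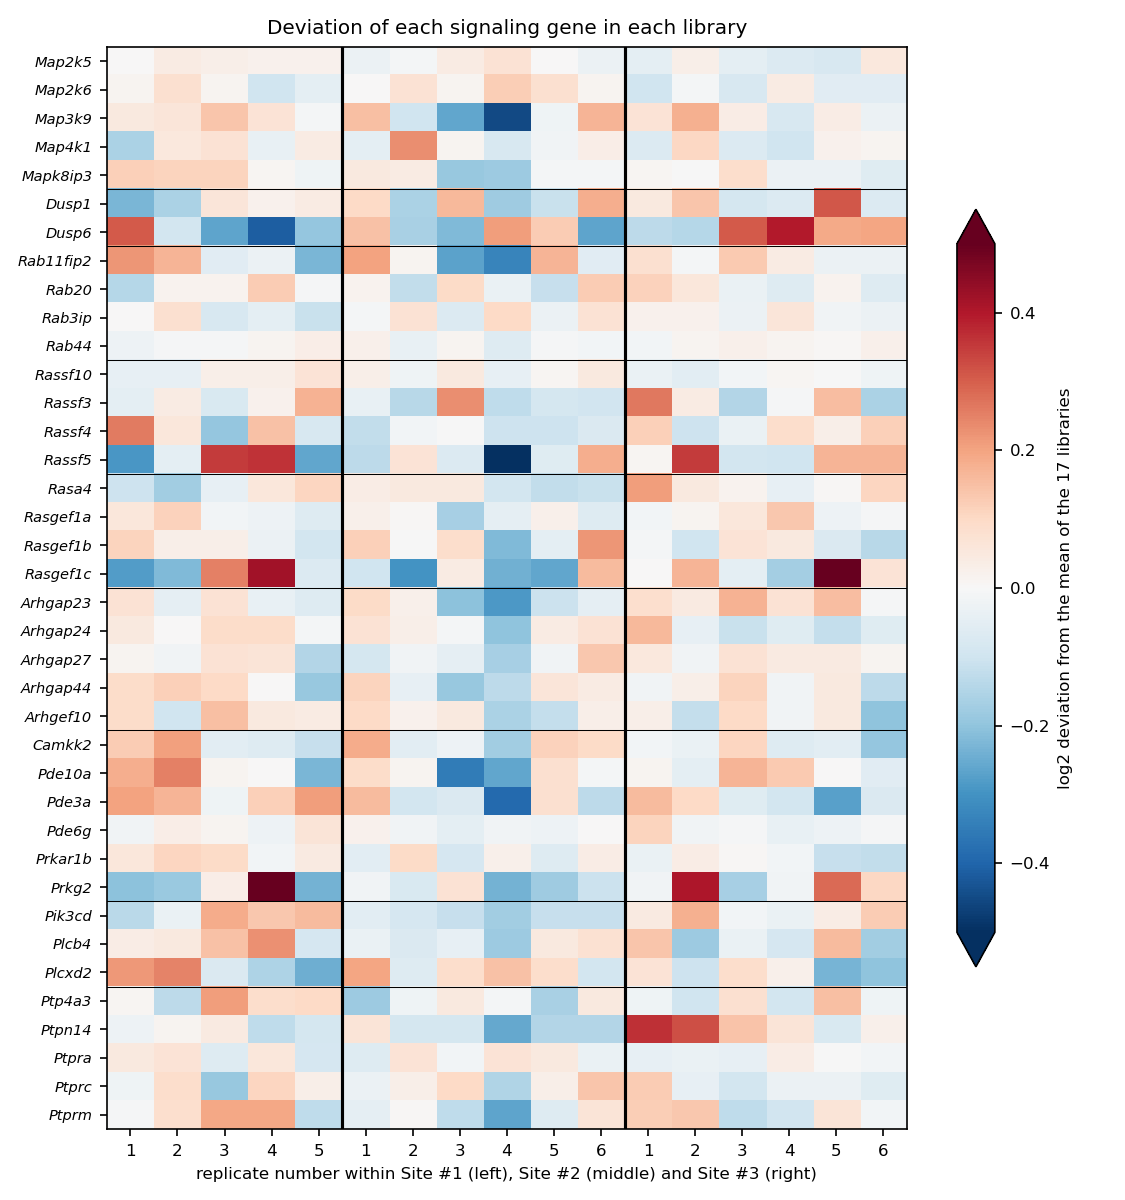
Log2 deviation of each signaling gene (rows, ordered by role) from its mean over the 17 libraries (columns, by site and replicate number), with colors capped at 0.5 in either direction. Replicate 4 of Site #2 is blue for many rows, and the deepest colors belong to Rassf5, Rasgef1c, Prkg2, Map3k9 and Dusp6.

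The levels of the members were also compared with each other over the 17 libraries, a step chosen after the data were seen. Of 703 pairs of members, 16 had an adjusted p under 0.05 for Pearson's r by a permutation test of 100000 resamples, 15 of them with a positive r. With Spearman's rho 10 pairs did, after centering within sites 32 did, and 9 pairs did under all 3. Pairs of r at or above 0.7 made up 2.86% of the pairs among the 35 members with at least 1 CPM and 1.53% of all pairs among the 13679 such genes. Libraries share their normalization and their tissue makeup, so these values describe genes that vary together and nothing more.

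The pairs fell around 2 sets of genes. In one, Pde10a and Rab11fip2 had r = 0.92 and rho = 0.887, with a permutation p of 1e-05, the smallest that the resamples can give, and an adjusted p of 0.00352 for r and 0.00703 for rho. The libraries with the highest Pde10a, replicates 2 and 1 of Site #1 at 10.89 and 10.82, had Rab11fip2 at 10.13 and 10.18, and those with the lowest, replicates 3 and 4 of Site #2 at 10.29 and 10.38, had it at 9.69 and 9.63. The relation was as close within sites, with r = 0.923 after centering, 0.941 within Site #2 and 0.776 within Site #3. Without the 2 libraries farthest from the median r was 0.868, and without replicate 4 of Site #2 it was 0.907. Pde10a also varied with Rasgef1a (r = 0.872, rho = 0.868, adjusted p = 0.00352), with Arhgap44 (r = 0.847, rho = 0.755, adjusted p = 0.01) and with Mapk8ip3 (r = 0.822, rho = 0.76, adjusted p = 0.01), each by permutation. Without the 2 farthest libraries these were 0.822, 0.728 and 0.602. Camkk2 joined through Rab11fip2 (r = 0.738) and Arhgap44 (r = 0.746).

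The other set held Rassf5, Rasgef1c and Prkg2, which are among the members with the widest spread. Ptprm and Rassf5 had r = 0.839 (rho = 0.801, permutation adjusted p = 0.00703 for r and 0.0352 for rho), 0.865 after centering within sites and 0.766 without replicate 4 of Site #2, where both genes were lowest at 10.17 and 8.91. Dusp1 and Rasgef1c had r = 0.793 (rho = 0.789, permutation adjusted p = 0.01 for r and 0.0352 for rho), 0.851 after centering and 0.663 without the 2 farthest libraries. The latter pair was highest together in replicate 5 of Site #3, at 9.46 and 7.66. Prkg2 varied with Rasgef1c (r = 0.781, rho = 0.765, permutation adjusted p = 0.0311) and with Rassf5 (r = 0.747, rho = 0.745, permutation adjusted p = 0.0311), and Map3k9 with Ptprm (r = 0.742, falling to 0.547 without the 2 farthest libraries). The 1 negative pair was Arhgap23 with Map2k5, at r = -0.718 (rho = -0.672, permutation adjusted p = 0.0479), and -0.637 without replicate 4 of Site #2.

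The hippocampus has a dorsal and a ventral end and the fields CA1 to CA4 and dentate gyrus (DG), each with its own genes. Of the study's 187 markers of these regions, 17 had an identifier here, and each was set against every member (646 pairs, also chosen after the data were seen). An adjusted p under 0.05 for r was found for 19 pairs of 11 members, 17 of them positive. With rho it was 15 pairs, after centering within sites 33, and under all 3 it was 11. Pairs of r at or above 0.7 made up 3.19% of those between the 35 members with at least 1 CPM and the 17 markers, and 1.6% of those between the 13627 other such genes and the same markers. Pairs at or below -0.7 made up 0.336% and 0.814%.

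The closest relations were with Syt7, Zfp536 and Efnb2. Rassf5 followed Efnb2, a ventral marker that encodes the guidance ligand ephrin-B2, with r = 0.848, rho = 0.87 and adjusted p values of 0.00215 and 0.00646 by permutation. Efnb2 stood at 10.57 and 10.69 in replicates 3 and 4 of Site #1 and at 10.67 in replicate 2 of Site #3, the libraries in which Rassf5 reached 9.87 or 9.88. After centering within sites r was 0.846, without the 2 farthest libraries 0.887, and without replicate 4 of Site #2 0.907. Prkg2 also followed Efnb2 (r = 0.799, rho = 0.748, permutation adjusted p = 0.0153), though within Site #2 r was 0.185. The other genes of that set gave r = 0.697 (Rasgef1c), 0.614 (Ptprm), 0.458 (Dusp1) and 0.365 (Map3k9) with Efnb2, and for r and rho none of these had a permutation adjusted p under 0.05. After centering within sites that of Rasgef1c was 0.043. Rab11fip2, Pde10a and Arhgap44 followed Syt7, a dorsal marker that encodes a synaptic calcium sensor, at r = 0.871, 0.858 and 0.807 (permutation adjusted p = 0.00215, 0.00215 and 0.0129). Within Site #2 these were 0.969, 0.903 and 0.946, and within Site #3 0.347, 0.541 and 0.86. Only 1 dorsal and 2 ventral markers could be used, and Nrsn2, the other ventral one, had no positive pair among the 19; with Camkk2 it gave r = -0.725 (rho = -0.777, permutation adjusted p = 0.0475).

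Further pairs concerned the DG and CA2. Zfp536, 1 of 8 DG markers and a zinc finger gene, varied with Rab11fip2 (r = 0.865), Pde10a (r = 0.84), Arhgap44 (r = 0.821), Arhgap23 (r = 0.804) and Mapk8ip3 (r = 0.794), with permutation adjusted p values of 0.00323 to 0.00861. Among the other DG markers only Slc4a4 was in any of the 19 pairs. Dusp6 followed Rgs14, a CA2 marker that encodes a G protein regulator, with r = 0.796, rho = 0.88 and adjusted p values of 0.00861 and 0.0129 by permutation. Rgs14 was highest in replicate 1 of Site #1 at 13.13, where Dusp6 was 11.43. It was lowest in replicate 3 of the same site at 12.31, where Dusp6 was 10.86. Centered within sites the pair gave r = 0.772, and without the 2 farthest libraries 0.827. Of the 4 CA2 markers with an identifier, Rgs14 was the only one with so close a relation to Dusp6. Rassf5 ran against Gpr12, another CA2 marker, with r = -0.733 (rho = -0.703, permutation adjusted p = 0.0431). The share of each region in a dissected hippocampus was not measured, and its part in these relations was not tested.

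**Figure D5:**
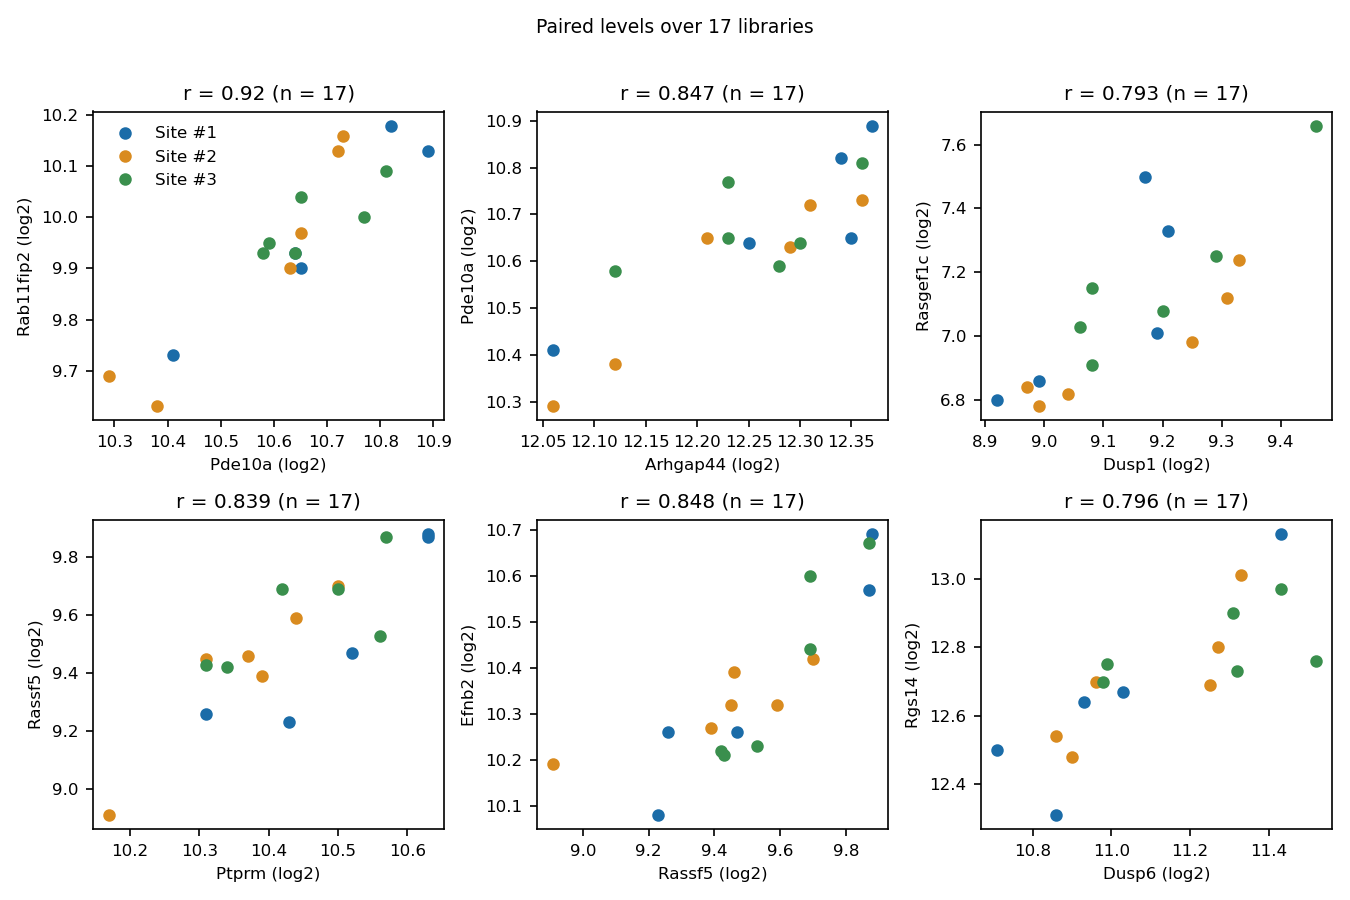
Deposited log2 levels of 6 pairs of genes over the 17 libraries, with 1 point per rat colored by site. Points of all 3 sites lie along the same trend in each panel, with r from 0.793 for Dusp1 and Rasgef1c to 0.92 for Pde10a and Rab11fip2.

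No pair of the members expressed by leukocytes passed the test. Ptprc gave r = -0.169 with Pik3cd, 0.077 with Map4k1, 0.168 with Rassf5 and -0.166 with the mean of the microglial markers, none with an unadjusted permutation p under 0.05 (0.517, 0.771, 0.52 and 0.53). Rassf5 gave r = 0.393 with the microglial mean (permutation p = 0.12) and Map4k1 0.198 (permutation p = 0.441). Cd3e, the T cell marker, ran from 7.42 to 9.12 and was 0 in no library. Within single sites of 6 rats these values were uneven: Ptprc and Rassf5 gave r = 0.909 within Site #2 and -0.078 within Site #3, and Pik3cd, Map4k1 and Rassf5 gave -0.651, -0.576 and -0.575 with the microglial mean within Site #3, against 0.047, 0.522 and 0.095 within Site #2. For the 10 pairs chosen by textbook roles, those of Dusp1, Dusp6 and Rasgef1b included, 0 had an adjusted permutation p under 0.05 for r, for rho or for r centered within sites, with smallest values of 0.45, 0.361 and 0.156.

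Other kinases, phosphatases, G proteins and second messenger genes of the same methylation lists, 62 in all, were tested in the same fits. For Site #2 vs Site #3, 1 of 62 was called: Ppm1d, a phosphatase that acts on p53 and DNA damage kinases, at -0.20 (SE 0.04, limma adjusted p = 0.037). That is 1.61% of the 62, beside 1.05% of all genes. Of 20 alternatives Ppm1d was called in 11, with limma adjusted p values from 0.0151 to 0.0901. The call was lost with the replicate block (0.0901) and when any of 8 libraries was left out. No gene of the 62 was called in the other comparisons. At an unadjusted p under 0.05 there were 5 between Sites #1 and #2 (8.06%, beside 6.74% of all genes and 9.19% of genes with at least 1 CPM). Of these, 1 was higher and 4 were lower at Site #2. Site #3 had 7 relative to Site #1 (6 higher, 1 lower), 15 relative to Site #2 (12 higher, 3 lower) and 10 relative to the mean of both (8 higher, 2 lower). The 15 make up 24.2% of the 62, beside 14.8% of all genes and 21.1% of genes with at least 1 CPM. The 7 and the 10 make up 11.3% and 16.1%, beside 8.17% and 12.0% of all genes. Of genes with at least 1 CPM the shares were 10.6% and 15.9%, close to those of the 62. Over all genes at that limit between Sites #2 and #3, 1640 were higher and 1712 lower at Site #3. The G proteins and GTPase regulators gave 6 of 20, all higher at Site #3, among them Dab2ip, a Ras GAP (0.14, SE 0.03, limma adjusted p = 0.0739), and Bcr, which has both GEF and GAP activity (0.28, SE 0.08, limma adjusted p = 0.123). Of the 25 kinases, Grk2, which phosphorylates active G protein-coupled receptors, had no overlap between Sites #2 and #3 (0.13, SE 0.03, limma adjusted p = 0.0732). It was the only such gene of the 62 (1.61%), beside 1.95% of all genes.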

How the data were processed

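RNA-Seq libraries of 17 rat hippocampi were grouped by the site named in the sample labels. The authors used Trimmomatic for trimming, HISAT2 for alignment to rn6 and featureCounts for counting. The deposited values are log2, 1 per Ensembl gene and library, from -2.28 to 20.22. Their normalization between libraries is not given in the sources used here beyond the name DESeq2. They hold no counts, so the depth of each library is unknown, and the paper gives only an average number of reads per sample. Precision is judged here from the number of rats and the spread between them. The labels name a TruSeq kit and the paper another one, and the labels list hg19 beside rn6.

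Of 32494 genes, 9830 listed at 0 in every library were dropped, with no other filter or pseudocount. Pairs of sites were fitted separately with limma (lmFit and eBayes, trend on, two-sided). All 17 libraries entered the comparison of Site #3 against the mean of both other sites. Adjusted p values are Benjamini-Hochberg over 22664 genes, with a threshold of 0.05. The design also covered counts, which the files do not hold. Correlations used two-sided permutation tests with 100000 resamples, adjusted within each family of pairs. Approximate CPM came from raising 2 to the value and scaling libraries to 1 sum.

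Members, roles and lists were chosen with earlier results of these data known, and the families of 703 and 646 pairs after the data were seen. Symbols came from the study's supplementary tables. Genes named with all values were those with an unadjusted p under 0.05 in a comparison and the smallest p of each role; Rassf5 was added for its range. Replicate numbers recur between sites but mark different rats. Deviations of same-numbered libraries correlated between -0.459 and 0.39, so the numbers were not taken to pair them. Nothing says whether the rats of a site shared a cage or litter. Alternatives were quantile normalization, a CPM minimum of 1, median centering, array weights, no trend, robust estimation, 1 fit of all libraries, a replicate block, and leaving out each library. The limma and permutation scripts were tested on simulated data. Software was limma 3.58.1 in R 4.3.3, and in Python 3.11.15 scipy 1.17.1, matplotlib 3.10.9, pandas 2.3.3 and numpy 2.4.6.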

Additional observations from a re-analysis of the deposited data

Results flagged for a closer look

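In groups of 5 or 6 libraries, 6 of 114 had 1 library whose gap to the nearest other exceeded Dixon's 95% critical value, and chance alone flags about 5.7 such groups (1 in 20). Arhgap24 was 7.64 in replicate 4 of Site #2, where the nearest library had 7.83. The same gene was 8.00 in replicate 1 of Site #3, with the nearest at 7.80. Map4k1 was 7.06 in replicate 2 of Site #2, above a nearest value of 6.86. Pde6g was 2.86 in replicate 1 of Site #3, with 2.74 as the nearest. Ptprc was 7.46 in the same library, with 7.30 as the nearest. Rassf3 was 9.06 in replicate 3 of Site #2, above 8.79. Of the 6, 3 lay in replicate 1 of Site #3, the library with high F5.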

How the results depend on the processing

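The count of members with an adjusted p under 0.05 was 0 in each comparison under every alternative run but 1. With only genes of at least 1 CPM tested, 1 member was called for Site #2 vs Site #3, Pik3cd at an adjusted p of 0.046 by limma, where fewer genes enter the adjustment. Over all alternatives its adjusted p ran from 0.046 to 0.147, and that of Ptpn14 from 0.0848 to 0.269 in the same comparison and from 0.0782 to 0.27 for Site #3 against the mean of the other sites. Leaving out each library in turn left the count at 0 in all 4 comparisons. With the replicate block it was 0 in each as well (smallest adjusted p 0.805, 0.827, 0.0954 and 0.0782). Among 27 differences recomputed, 25 kept their direction; Rab44 for Site #2 vs Site #3 turned to -0.001 with median centering, and Pik3cd for Site #1 vs Site #3 ran from -0.057 to 0.025 when libraries were left out, and neither was called. Of these differences, 13 were added after the data were seen. Counts over all genes moved more: 0 to 36 for Site #1 vs Site #3 (23 as reported), 43 with the replicate block to 482 with the CPM minimum for Site #2 vs Site #3 (239 as reported), and 62 to 339 for Site #3 against the mean of the others (174 as reported). With 5 or 6 rats a site a p that misses the threshold does not show that the sites are alike.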
